A study of Mus musculus with 10 samples.

Results

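The 5 tumors of RPR2;Nfibf/f mice were divided by their level of Calca, the gene of calcitonin and of calcitonin gene-related peptide (CGRP). The 3 Calca-high tumors, chosen by a level of at least 50000 TPM (transcript abundance scaled to the same sum in each sample), were the lung tumor of mouse JHK997 and both tumors of JHK1399, a lung tumor and a liver metastasis. The 2 Calca-low tumors, which lay below that level, were the lung tumor and the liver metastasis of JHK1398. These 5 samples are part of a series of 10 samples from 6 mice that was sequenced for RNA. In the RPR2 model, mice develop small cell lung cancer after the tumor suppressors Rb1, Trp53 and Rbl2 (p130) are deleted in the lung, and both genotypes share these deletions. RPR2;Nfibf/f mice, below referred to as Nfib-floxed, additionally carry floxed alleles of Nfib, a nuclear factor I transcription factor gene. The other 5 samples were RPR2 lung tumors (n = 3) and RPR2 liver metastases (n = 2). Tumors were dissected from the lungs and livers of mice at morbidity, so each sample also holds host cells. The sources used here do not give the ages of the mice or the cells in which the alleles were deleted.

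Small cell lung cancer is a neuroendocrine tumor, and pulmonary neuroendocrine cells, which line the airways, are known for making CGRP from Calca. The Calca transcript is spliced in 2 ways, one of which encodes the calcitonin precursor and the other the CGRP precursor. Both precursors are cut by prohormone convertases, amidated at their end and stored in dense-core granules with the granins. The deposited table gives 1 level per gene, so the 2 splice forms cannot be told apart here.

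The division rests on measured Calca, and the Calca-low tumors come from 1 mouse. Calca level and mouse therefore cannot be told apart, and differences between the sets are described with no test. The Y-linked genes Eif2s3y and Ddx3y had 212 and 64.9 TPM in the tumor of JHK997. In the other Nfib-floxed tumors they had at most 0.747 and 0.233 TPM, so the mice of the high set differed in Y-linked transcripts. Values are given in TPM in a fixed order. Those of the Calca-high set are the lung tumor of JHK997, the lung tumor of JHK1399 and the metastasis of JHK1399, and those of the Calca-low set are the lung tumor and then the metastasis of JHK1398. A difference is the mean of log2(TPM + 1) of the high set minus that of the low set. It understates the change of genes at low levels.

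Calca was the most abundant transcript in all 3 Calca-high tumors. Its levels were 71946, 68511 and 57529 TPM in the high set and 6044 and 5470 TPM in the low set. The means were 65995 ± 7530 TPM (SD, n = 3) and 5757 ± 406 TPM (SD, n = 2), a ratio of 11.5 and a difference of 3.51. The gap between the sets was set by the threshold, and tumors of 1 mouse share their source, so these SDs do not measure the spread between mice. Within lung tumors the difference was 3.54 and within metastases 3.39. Calca made up 7.19%, 6.85% and 5.75% of all TPM in the high set and 0.604% and 0.547% in the low set, where it ranked 13th and 9th among all genes. In the RPR2 lung tumors it reached 18196, 9162 and 11505 TPM, and in the RPR2 metastases 545 and 1410 TPM. The metastasis of JHK1399 was thus the sample closest above the threshold, and no RPR2 tumor reached it. The low set lay below all RPR2 lung tumors and above both RPR2 metastases. In bulk samples, fewer cells of a type and less RNA per cell cannot be told apart.

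**Figure D1:**
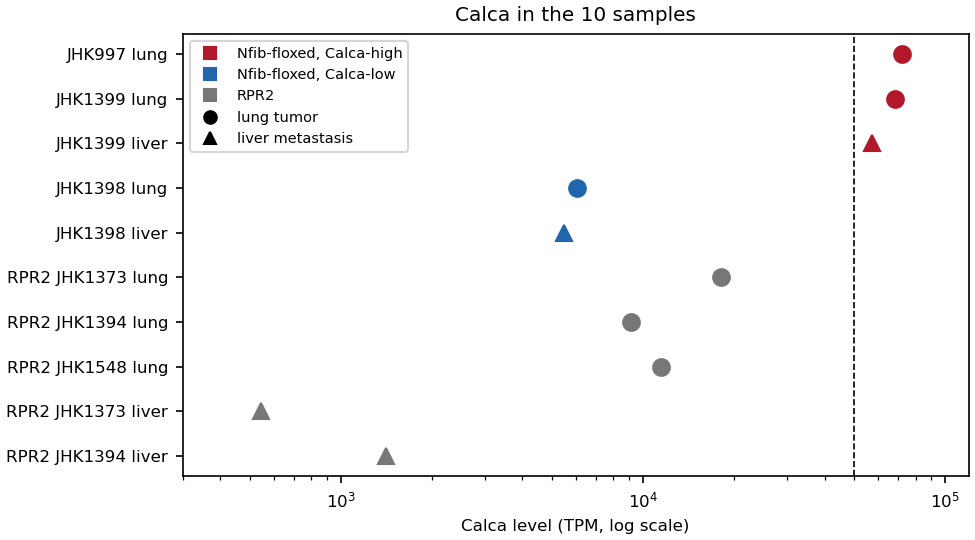
Level of Calca in TPM on a log axis (x) for each of the 10 samples (y). Circles are lung tumors, triangles are liver metastases, and the dashed line is the threshold of 50000 TPM. The 3 Calca-high samples lie between 57529 and 71946 TPM, and the other samples at 18196 TPM or below.

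The tests of the labelled groups, which do not use the Calca threshold, were run with limma on 15503 genes with Benjamini-Hochberg adjustment. The mean genotype effect on Calca, Nfib-floxed minus RPR2, was 2.83 ± 0.83 (SE) on the log2 scale with an adjusted p of 0.163. Its change from lung tumor to metastasis in Nfib-floxed mice was -0.81 ± 1.18 (SE) with an adjusted p of 0.88, and it was 0.89 without the metastasis of JHK1398. Neither effect passed the threshold of 0.05. In all, 19 genes (0.123%) passed in the tissue comparison and 99 (0.639%) in the genotype comparison. Of the 197 genes counted between the Calca sets that entered the fit, 0 passed in either, while 8 had an unadjusted p under 0.05 in the tissue comparison and 19 in the genotype comparison. Leaving out 1 sample at a time gave 0 genes (without the lung tumor of JHK1398) to 35 (without the RPR2 lung tumor of JHK1548) for tissue. For genotype it gave 26 (without the RPR2 metastasis of JHK1373) to 186 (without the lung tumor of JHK1398).

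Calca lies on the minus strand of chromosome 7 (114631478 to 114636357 in GRCm38), and no other annotated gene overlaps it. The 250 bases before its start site are shown because this is the proximal control region of the gene that divides the tumors. They were taken from RefSeq (GRCm38.p6, chr7:114636358-114636607, minus strand, 5′ to 3′), and the capitals mark a TGACG motif, the core of the cAMP response element.
Calca: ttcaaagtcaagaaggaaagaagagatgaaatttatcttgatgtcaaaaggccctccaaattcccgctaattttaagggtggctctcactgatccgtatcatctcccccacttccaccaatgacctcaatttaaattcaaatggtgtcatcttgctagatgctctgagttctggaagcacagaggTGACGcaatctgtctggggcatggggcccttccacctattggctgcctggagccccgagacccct
TGACG, searched on both strands, occurred once in this window, with its first base at position -65 from the start site. The window held neither TGACGTCA, the full palindromic cAMP response element that contains TGACG, nor TGTTTAC, a forkhead motif. Among 27025 genes in the RefSeq promoter table, 19.8% held TGACG in the same window, 1.77% held TGACGTCA and 3.54% held TGTTTAC. Of the genes counted as higher in the Calca-high set below, 103 were matched in that table, and 26 of them (25.2%) held TGACG. Of those counted as lower, 20 were matched and 2 (10%) held it. A match describes letters and is not a measured binding site.

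The genes near Calca did not share its difference. Calcb, which encodes a second CGRP and lies 82.3 kb away, had 30.1, 9.57 and 21.3 TPM in the high set and 46.6 and 24.0 TPM in the low set, and the sets overlapped. Pde3b, a phosphodiesterase that degrades cAMP and lies 92.2 kb away, had a difference of 1.44. Its 56.2, 110 and 49.5 TPM overlapped with 10.7 and 53.1 TPM. Copb1, Psma1, Insc and the pseudogene Gm15500 had differences between -0.12 and 0.33 and overlapped too. Cyp2r1 did not overlap but differed by -0.42, at 1.7 TPM or less in all 5 tumors.

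Across the transcriptome, a gene was counted where the values of the 2 sets did not overlap and the difference was at least 2 log2 units. Genes averaging 1 TPM or more over the 5 tumors were considered. Of these 15243 genes, 165 (1.08%) were counted as higher in the Calca-high set and 33 (0.216%) as lower. The sets did not overlap, whatever the size of the difference, for 4972 genes (32.6%), of which 4107 (26.9% of tested genes) were higher and 865 (5.67%) lower in the high set. The median difference over all tested genes was 0.37, so differences below are read against that shift. The direction of the split depended on the scaling. With quantile normalization 64 genes were counted as higher and 70 as lower, and with each sample centred on its median the counts were 56 and 85. The share counted as higher was then 47.8% and 39.7%, against 83.3% in the values as deposited. Of the 165 genes, 53 (32.1%) were also higher in all Calca-high tumors than in all RPR2 tumors, as were 9.67% of all tested genes. Of the 33, 7 (21.2%) were lower than in all RPR2 tumors, as were 5.41% of all tested genes. The counted genes were chosen by their levels in these same Calca-high tumors. Shares above those of all tested genes follow at least in part from that choice and are no separate finding.

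**Figure D2:**
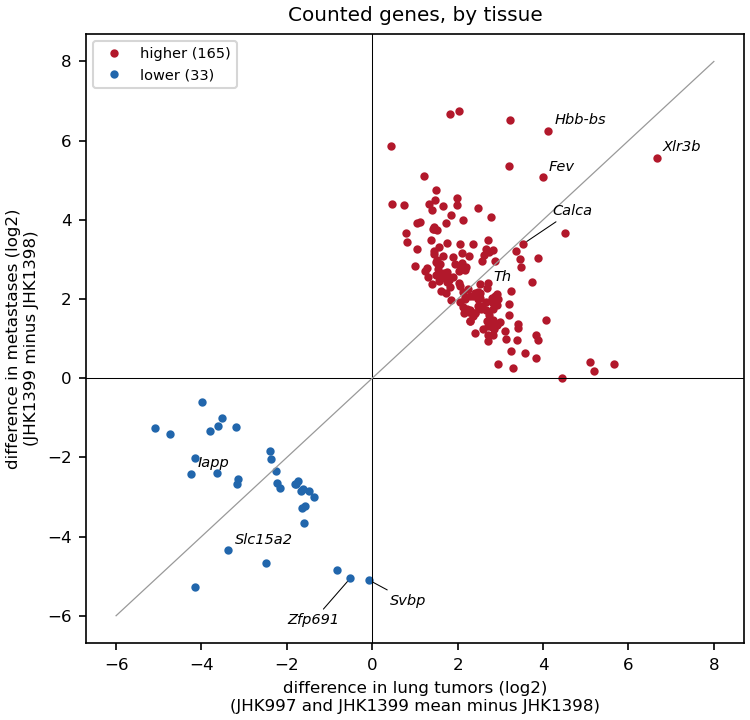
Difference in log2(TPM + 1) between lung tumors (x, mean of JHK997 and JHK1399 minus JHK1398) and between metastases (y, JHK1399 minus JHK1398) for the 165 genes counted as higher (red) and the 33 counted as lower (blue). The gray line marks equal differences. Calca lies near it, with 3.54 and 3.39, while Svbp and Zfp691 differ mainly in the metastases.

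Both tissues contributed to the counts. Of the 165 genes counted as higher, 107 differed by at least 2 log2 units in lung tumors and 111 in metastases. Of the 33 lower genes, 20 and 25 did so. The lung tumor of JHK1398 stood apart in its makeup: 12.9% of its TPM came from mitochondrially encoded genes, against 5.41% to 7.13% in the other 4 Nfib-floxed tumors. Its most abundant transcript was Scgb1a1, the club cell secretoglobin of the airway, with 50157 TPM against 6.92 to 4691 TPM in the others. Without this sample 685 genes were counted as higher and 108 as lower. Without the metastasis of JHK1398 the counts were 536 and 356, without the lung tumor of JHK997 they were 266 and 67, and without the metastasis of JHK1399 they were 319 and 45.

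Among the other peptides of the calcitonin family, adrenomedullin and amylin went opposite ways. Adm, the gene of the vasodilator adrenomedullin, had 9.89, 13.4 and 11.2 TPM in the high set and 2.87 and 3.10 TPM in the low set. All Calca-high tumors lay above all other 7 samples, since the RPR2 tumors had 1.68 to 3.97 TPM. The difference of 1.64 was under the 2 log2 units that the count requires. Iapp, the gene of amylin, was counted as lower, with 5.37, 2.23 and 1.37 TPM against 84.4 and 11.6 TPM and a difference of -3.17. Its low-set levels lay within the RPR2 range of 0.828 to 89.4 TPM. Adm2, or intermedin, had 1.66, 1.08 and 2.64 TPM against 0.773 and 16.1 TPM, and the sets overlapped.

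The receptors of these peptides were low and did not separate the sets. Calcrl, which binds CGRP or adrenomedullin depending on its partner, had 9.88, 10.99 and 0.792 TPM in the high set and 7.76 and 1.11 TPM in the low set. Both metastases lay below all 3 lung tumors. Ramp1, the partner that makes it a CGRP receptor, had a difference of 0.88, Ramp2 one of 0.10 and Ramp3 one of 0.62, and all 3 overlapped. Calcr, the calcitonin receptor, stayed at 0.133 TPM or less in the 5 tumors. Of the 11 family members, 10 passed the filter. Of these, 1 was counted as higher (Calca) and 1 as lower (Iapp), against 1.08% and 0.216% of all tested genes. The difference of Calca follows from the division. The median difference of the 10 was 0.37, the same as that of all tested genes.

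Many genes of the machinery that makes and stores peptide hormones had higher levels in the Calca-high set, though none reached the 2 log2 units of the count. Of its 24 listed genes 23 passed the filter. Of these, 15 (65.2%, against 26.9% of all tested genes) had non-overlapping higher levels and 0 non-overlapping lower levels, and the median difference was 1.07 against 0.37 for all tested genes. The list's median stayed between 0.63 and 1.15 under 4 other scalings, while that of all tested genes moved between -0.08 and 0.46. Median centring and the rescalings of TPM shift nearly all genes of a sample alike, so they could hardly change the list against all genes. With quantile normalization the medians were 0.94 for the list and 0.01 for all tested genes. Chgb, which encodes the granule protein chromogranin B, had 303, 395 and 256 TPM in the high set and 108 and 87.7 TPM in the low set. The RPR2 tumors had 24.3 to 198 TPM, below all Calca-high tumors. Chga, the gene of chromogranin A, had 620, 863 and 726 TPM against 409 and 235 TPM.

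The enzymes followed the granins. Pcsk1, the convertase that cuts prohormones, had 579, 271 and 424 TPM in the high set and 142 and 194 TPM in the low set. Pcsk1n, which encodes the convertase inhibitor proSAAS, had the largest difference of the list, 1.90, with 130, 457 and 95.6 TPM against 62.2 and 35.7 TPM. Pam, the enzyme that amidates CGRP and calcitonin, had 939, 791 and 629 TPM against 214 and 395 TPM. All 3 genes separated the sets in both tissues. Scg2, the gene of secretogranin II, did not: it had 723, 1.76 and 321 TPM against 199 and 7.40 TPM, so the lung tumor of JHK1399 was the lowest of the 5. Pcsk2 overlapped as well, with a difference of 0.58.

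**Figure D3:**
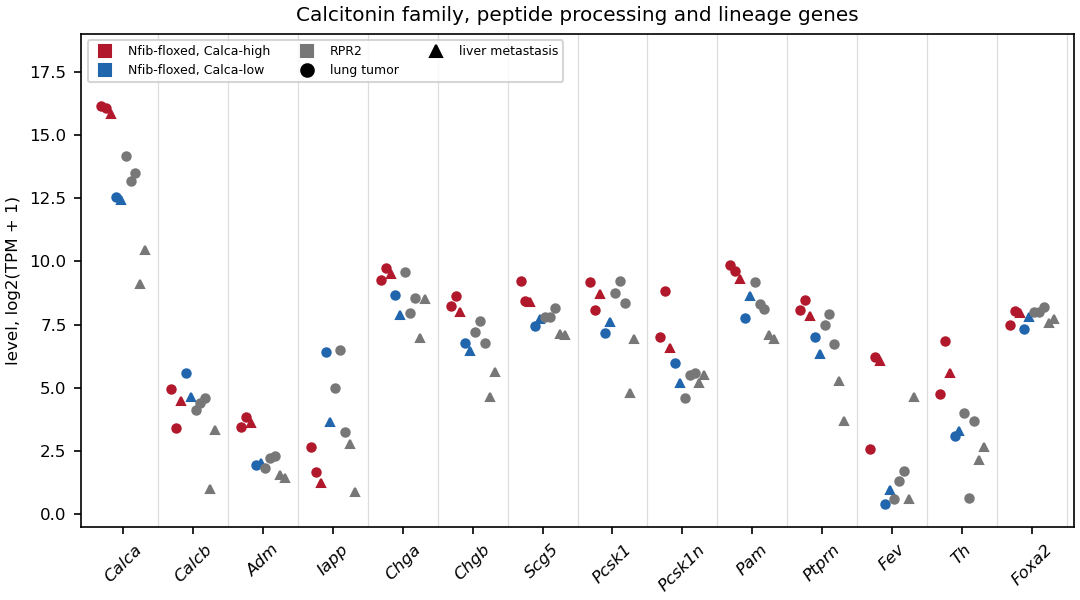
Level in log2(TPM + 1) (y) of 14 genes of the calcitonin family, of peptide processing and of neuroendocrine lineage (x) in each of the 10 samples. Red is the Calca-high set, blue the Calca-low set and gray RPR2. Calca, Adm, Chgb, Pam, Fev and Th show the red points above the blue ones, Iapp shows the reverse, and Foxa2 overlaps.

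General neuroendocrine genes had no common direction against all tested genes. Of 41 listed genes, all passed the filter, 2 were counted as higher and 1 as lower, against 1.08% and 0.216% of all tested genes. Without overlap, 24.4% were higher and 4.88% lower, against 26.9% and 5.67% of all tested genes. The list's median difference of 0.28 lay below the 0.37 of all tested genes. It was -0.16 with median centring, below the -0.08 of all genes, and 0.20 with quantile normalization, above their 0.01. Neurod1, which marks another subtype of the tumor, was at 0.23 TPM or less in all 10 samples. Uchl1 and Ncam1, both common neuroendocrine markers, had differences of 0.30 and 0.15 and overlapped. Both sets thus carried neuroendocrine markers, as the labelled tumor type does. Dll3, a Notch ligand of neuroendocrine tumors, had 10.4, 7.92 and 14.8 TPM against 19.8 and 26.9 TPM.

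The members that separated the sets did so in both directions. Sez6l, a membrane protein of neurons, was counted as higher with 20.9, 17.3 and 8.50 TPM against 0.347 and 0.159 TPM. Syt13, an atypical synaptotagmin, had 64.3, 43.8 and 27.7 TPM against 11.4 and 7.27 TPM. Eno2, neuron-specific enolase, had 59.6, 84.3 and 60.8 TPM against 19.98 and 19.03 TPM, and its difference of 1.74 was not counted. Syp, the vesicle protein synaptophysin, differed by 1.23 without overlap. Bex1, a small adaptor protein, was counted as lower with 19.3, 26.7 and 4.07 TPM against 212 and 31.1 TPM, and the RPR2 tumors had 124 to 218 TPM.

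Fev had a larger difference than any listed lineage factor. It encodes an ETS factor of serotonergic neurons that is also expressed in enteroendocrine and other neuroendocrine cells. Its levels were 5.01, 73.3 and 65.1 TPM in the high set and 0.326 and 0.962 TPM in the low set, a difference of 4.26. The 2 tumors of JHK1399 stood above that of JHK997, so most of the mean came from 1 mouse. The RPR2 metastasis of JHK1394 reached 23.8 TPM and the other RPR2 tumors 0.52 to 2.31 TPM. Th, the gene of tyrosine hydroxylase in catecholamine synthesis, was counted as well, with 26.1, 114 and 46.6 TPM against 7.61 and 8.73 TPM. Tph1, which starts serotonin synthesis, overlapped at 13.6, 2.43 and 4.14 TPM against 16.8 and 6.94 TPM. Of the 12 genes of monoamine synthesis and transport that passed the filter, 1 (Th) was counted as higher, against 1.08% of all tested genes.

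Other lineage factors mostly did not separate the sets. Of 30 that passed the filter, 3 were counted as higher (Hnf4a, Nfix and Myt1l), against 1.08% of all tested genes, and 0 as lower. Whatever the size of the difference, 26.7% were higher without overlap and 3.33% lower, against 26.9% and 5.67% of all tested genes. Hnf4a, a factor of liver and gut epithelium, had 2.86, 72.4 and 3.31 TPM against 0.842 and 0.185 TPM, so it was high in the lung tumor of JHK1399 alone. Nfix, a relative of Nfib, had 10.2, 56.7 and 20.4 TPM against 9.40 and 2.10 TPM. Foxa2, a forkhead factor of the lung and of neuroendocrine tumors, overlapped with a difference of 0.23. Nkx2-1, the lung lineage factor, overlapped too. Nfia, another relative of Nfib, had 2.75, 1.31 and 1.32 TPM against 6.03 and 5.40 TPM and a difference of -1.30 without overlap.

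The targeted genes did not distinguish the sets, with 1 exception. Nfib had 38.6, 26.5 and 41.3 TPM in the high set and 38.0 and 46.1 TPM in the low set. Its gene-level TPM may include transcripts of the deleted allele, so it does not measure how complete the deletion was. Rb1 and Trp53 overlapped, with differences of 0.72 and 0.26. Rbl2 had 23.6, 32.4 and 38.9 TPM against 6.97 and 7.99 TPM, a difference of 1.92 without overlap, and the RPR2 tumors had 13.9 to 28.8 TPM. Among the MYC family, Mycn differed by 1.19 without overlap, at 20.8, 6.35 and 6.98 TPM against 3.595 and 3.89 TPM. Mycl reached 981 TPM in the metastasis of JHK1398 and 12.2 to 48.8 TPM in the other 4 Nfib-floxed tumors. The RPR2 tumors had 106 to 482 TPM, so those 4 tumors lay below all of them.

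Genes of cAMP signaling and of the factors known to bind the Calca enhancer were counted in no case. Of 29 that passed the filter, 14 (48.3%, against 26.9% of all tested genes) were higher without overlap and 0 lower. Their median difference was 0.60 against 0.37 for all tested genes. With median centring 20 of the 29 stayed above 0, against 28 in the values as deposited. The list's median was then 0.15, against -0.08 for all tested genes. Prkacb, a catalytic subunit of protein kinase A, had 122, 349 and 155 TPM against 35.2 and 106 TPM. Atf1, a factor that binds the cAMP response element, had 56.4, 53.6 and 57.5 TPM against 12.7 and 49.8 TPM. For both, the lung tumor of JHK1398 was well below the other 4 tumors. Creb1, a related factor, overlapped with 22.3, 23.1 and 22.5 TPM against 7.45 and 28.3 TPM. Gnas, the stimulatory G protein, had a difference of 0.01.

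Some genes of vesicle release and ion channels were counted. Of 36 genes of vesicle exocytosis, 14 (38.9%, against 26.9% of all tested genes) were higher without overlap, 0 were lower, and 1 (Syt13) was counted. Their median difference was 0.65 against 0.37 for all tested genes, and 0.20 against -0.08 with median centring. Vamp2, a vesicle fusion protein, had 361, 431 and 333 TPM against 67.3 and 232 TPM. Of 26 calcium and sodium channel genes, Cacna2d2, an auxiliary calcium channel subunit, and Scn3b, a sodium channel subunit, were counted as higher. Over all tested genes 1.08% were counted as higher. Of the 26, 11 (42.3%, against 26.9% of all tested genes) were higher without overlap and 0 lower. Cacna2d2 had 37.3, 50.9 and 16.7 TPM against 5.84 and 0.591 TPM. In the RPR2 metastasis of JHK1394 it reached 73.4 TPM. With quantile normalization 14 of the 26 genes had a positive difference, against 23 in the values as deposited. The list's median was 0.52 with quantile normalization, against 0.01 for all tested genes. In the values as deposited it was 0.64 against 0.37.

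Most genes with the largest differences were not members of these lists. Xlr3b, an X-linked gene of a multicopy family whose copies share sequence, so that its level is uncertain, had 152, 145 and 78.7 TPM against 0.474 and 0.676 TPM. Rec8, a cohesin subunit of meiosis, had 45.9, 221 and 45.2 TPM against 10.1 and 0.118 TPM. Susd5 had 23.9, 38.0 and 12.7 TPM against 0.356 and 0.0779 TPM. Its high-set levels lay around those of the RPR2 tumors, 3.28 to 30.5 TPM, so that the low set was the one outside. The same held for Eno1b, an enolase copy close in sequence to Eno1 and therefore uncertain: it had 210, 278 and 199 TPM against 60.1 and 7.60 TPM, and 97.1 to 529 TPM in RPR2. St6galnac5, Nkx6-2, Dock3, Foxf1, Cpne7, Pcdhga7 and Cdhr5 made up the rest of the 15 highest, with differences of 2.98 to 3.38.

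**Figure D4:**
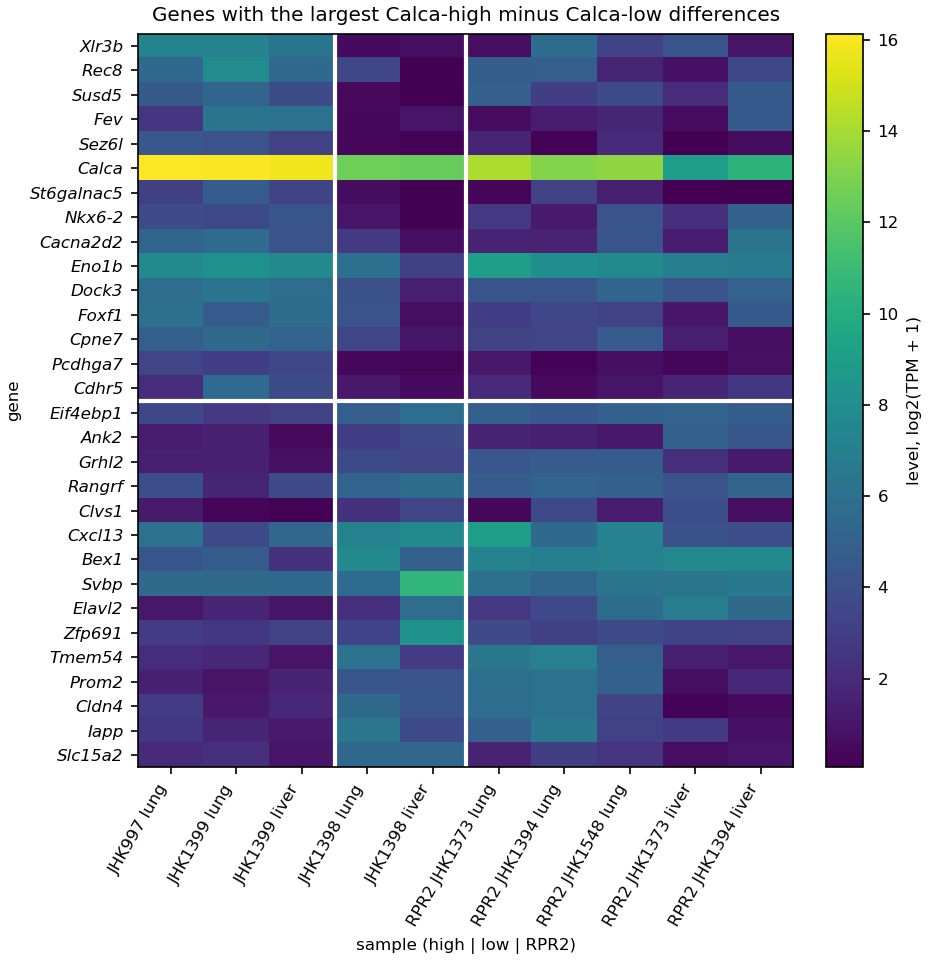
Level in log2(TPM + 1) (color) of the 15 genes with the highest and the 15 with the lowest differences (rows) in the 10 samples (columns). White lines separate the Calca-high, Calca-low and RPR2 samples and the higher from the lower genes. Iapp, Cldn4, Prom2 and Tmem54 are brighter in the lung tumors of JHK1398 and RPR2 than in the Calca-high set, and Svbp and Zfp691 in the metastasis of JHK1398.

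On the lower side, Slc15a2, a proton-coupled peptide transporter, had 2.86, 3.79 and 1.03 TPM in the high set and 43.5 and 40.0 TPM in the low set, a difference of -3.67, the lowest among the genes named by the rule. A predicted gene that the rule passes over, BC002163, had a lower one, -4.52. For Slc15a2 the RPR2 tumors had 0.607 to 7.27 TPM, so Slc15a2 was high in JHK1398 alone. Cldn4, a tight junction claudin, had 6.08, 1.20 and 2.57 TPM against 48.3 and 17.8 TPM, and Prom2, a protein of epithelial membrane protrusions, 1.81, 0.883 and 2.04 TPM against 19.3 and 16.9 TPM. Grhl2, a transcription factor of epithelia, had 1.71, 1.74 and 0.696 TPM against 11.8 and 9.68 TPM. In the RPR2 lung tumors Cldn4 had 9.16 to 66.5 TPM, Prom2 31.8 to 66.3 TPM and Grhl2 20.1 to 25.7 TPM. In the RPR2 metastases of JHK1373 and JHK1394 Cldn4 had 0.159 and 0.451 TPM, Prom2 0.606 and 2.82 TPM and Grhl2 3.80 and 1.31 TPM. Of the 33 genes of the epithelial list, 2 were counted as lower and 0 as higher, against 0.216% and 1.08% of all tested genes. Without overlap, 3 (9.09%) were lower and 3 (9.09%) higher, against 5.67% and 26.9% of all tested genes. The list's median of 0.06 lay below that of all tested genes, with 9 of the 33 above it. With quantile normalization the list's median was -0.16 against 0.01 for all tested genes, and with median centring -0.39 against -0.08. Cdh1 (E-cadherin) differed by 0.52 and Epcam by 0.06.

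Elavl2, a neuronal RNA-binding protein, Svbp, a partner of the vasohibins, and Zfp691, a zinc finger protein, differed between the sets mainly through 1 sample. In the metastasis of JHK1398 they had 54.4, 1605 and 311 TPM. In its lung tumor they had 3.78, 50.6 and 8.63 TPM, next to 0.932 to 2.39, 45.8 to 48.6 and 5.34 to 8.37 TPM in the high set. The RPR2 tumors had 39.2 to 93.2 TPM of Svbp and 7.63 to 13.0 TPM of Zfp691. Elavl2 had 5.49 to 109 TPM in RPR2, so the metastasis of JHK1398 lay within that range and the high set below it. Cxcl13, a B cell chemokine, had 67.1, 11.4 and 40.9 TPM against 139 and 213 TPM, and Eif4ebp1, a repressor of translation initiation, 10.9, 5.66 and 8.06 TPM against 29.9 and 57.1 TPM.

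Markers of other cell types moved with the sets in part. Of 6 erythroid genes that passed the filter, Hba-a1, Hba-a2, Hbb-bs and Hbb-bt were counted as higher, against 1.08% of all tested genes. These globin genes are near-identical pairs, so the split within a pair is uncertain. The summed level of the erythroid list was 1533, 11806 and 43058 TPM in the high set and 702 and 519 TPM in the low set. Liver genes also differed between the metastases: the hepatocyte list summed to 4644 TPM in that of JHK1399 and to 240 TPM in that of JHK1398, with Alb (albumin) at 1159 and 26.3 TPM. Over the lung tumors it summed to 392 and 1795 TPM against 1399 TPM. Of 31 hepatocyte genes 1 (Hnf4a) was counted as higher, against 1.08% of all tested genes, and the list's median difference was 1.21.

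Club cell and B cell markers were highest in the lung tumor of JHK1398. The club cell list summed to 6862, 2113 and 528 TPM in the high set and to 56748 and 397 TPM in the low set. The B and plasma cell list summed to 2746, 1048 and 35.0 TPM against 12256 and 18.9 TPM. None of the 11 club cell or 7 B and plasma cell genes was counted. Endothelial genes had a median difference of 0.51, with 0 of 17 counted. The ciliated cell list summed to 492, 544 and 843 TPM against 409 and 648 TPM. Of its 10 genes that passed the filter, Fam183b was counted as higher, against 1.08% of all tested genes. Foxj1, the defining factor of these cells, had a difference of 0.09. Of the 7 peripheral neuron and glia genes that passed the filter, Th and Prph were counted as higher, against 1.08% of all tested genes. Prph had 137, 81.9 and 206 TPM against 37.1 and 26.2 TPM, whereas Nefh, another neurofilament gene, had a difference of 0.10. The part of these cells in the differences was not tested. Rescaling TPM without all cell type and mitochondrially encoded genes left 159 genes counted as higher and 40 as lower, 148 and 33 of them shared with the main counts.

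**Figure D5:**
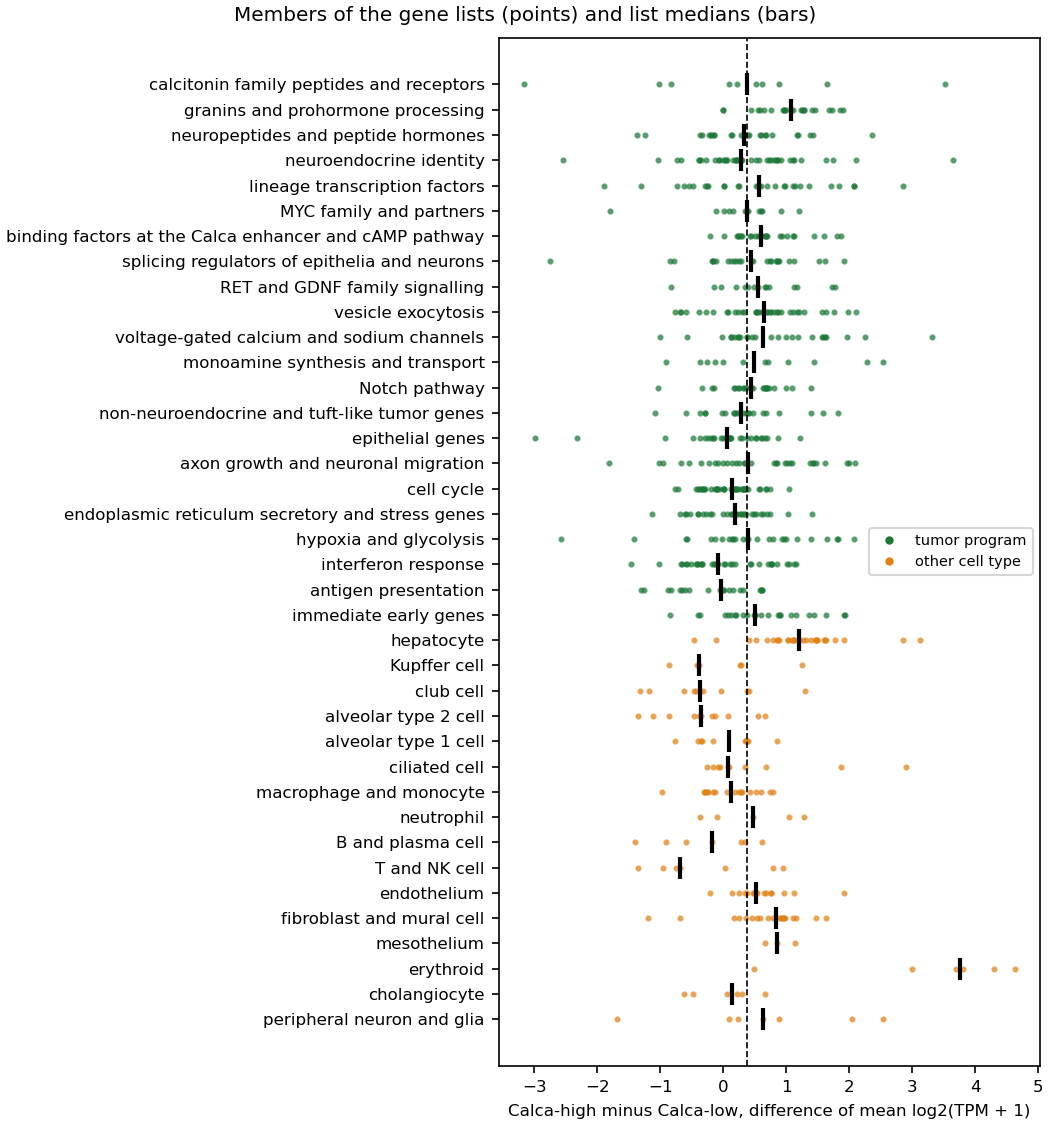
Difference in mean log2(TPM + 1) between the sets (x) for each member of the listed tumor programs (green) and other cell types (orange) that passed the filter. Black bars are list medians, and the dashed line is the median of all tested genes, 0.37. The erythroid, hepatocyte and granin lists have their medians well to the right of it, at 3.75, 1.21 and 1.07.

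Few genes of the signaling and stress programs were counted. Ret, a receptor tyrosine kinase of neuroendocrine and neural crest cells, overlapped at 68.5, 61.1 and 81.3 TPM against 54.7 and 109 TPM. Gfra4, a co-receptor of RET, had 18.0, 43.1 and 25.2 TPM against 7.92 and 6.60 TPM. Of 26 genes of hypoxia and glycolysis, 1 was counted as higher, against 1.08% of all tested genes. This was Egln3, an oxygen-dependent prolyl hydroxylase, with 60.4, 96.0 and 93.4 TPM against 9.69 and 34.7 TPM. Among 25 immediate early genes 0 were counted and 8 (32%, against 26.9% of all tested genes) were higher without overlap, among them Fos, Jun and Dusp1 with differences of 1.93, 1.62 and 1.91. Their median was 0.51 against 0.37 for all tested genes, and 0.06 against -0.08 with median centring. The 40 cell cycle genes had a median of 0.14, with a lung difference of 0.77 and a metastasis difference of -0.28, and 0 were counted. Interferon response and antigen presentation genes had medians of -0.09 and -0.03, with 0 counted. The 2 tissues went opposite ways: their lung differences were -0.99 and -1.10, and their metastasis differences 0.89 and 0.43. Of 20 antigen presentation genes, 3 (15%, against 5.67% of all tested genes) were lower without overlap and 0 higher. Of 32 secretory and stress genes of the endoplasmic reticulum 0 were counted, and their median was 0.19. Without overlap, 7 (21.9%) of them were lower and 3 (9.38%) higher, against 5.67% and 26.9% of all tested genes.

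Across all 10 samples, the 8 genes whose log2(TPM + 1) followed that of Calca most closely, among those averaging 5 TPM or more, were Pnmal2, Eogt, Tcta, Chgb, Disp2, Unc5a, Ppp2r5a and Fbxw9. Their Pearson r lay between 0.963 and 0.98. The points share mice and tissues, the genes were picked as the highest of all, and no p is given. Pnmal2 had 208, 202 and 153 TPM in the high set and 72.9 and 76.8 TPM in the low set. Its RPR2 levels ran from 21.3 TPM in a metastasis to 115 TPM in a lung tumor, in the same order of tissues as Calca. Unc5a, a netrin receptor, had 99.5, 97.0 and 93.6 TPM against 35.7 and 22.4 TPM. None of the 8 reached the difference of Calca, and 0 were counted. Chgb was the only 1 of them in the list of granins and prohormone processing.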

How the data were processed

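RNA was measured in 10 tumors of 6 mice, grouped by the labels. Per the labels' protocols, polyA RNA was selected and NEBNext Ultra II libraries were made. The submitters' processing notes name bcl2fastq 2.20, Salmon 0.12.0, R 4.1.0 and GRCm38. The sources used here do not give the annotation version or the strand setting. The authors deposited TPM per gene, and every sample has the same sum. TPM keeps no depth, so the depth is unknown and no counting interval is given. Each sample of a group came from another mouse, and 4 mice gave 2 samples each.

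Differences between the Calca sets were computed on log2(TPM + 1) for genes averaging 1 TPM or more, in Python 3.11.15 (pandas 2.3.3, numpy 2.4.6, matplotlib 3.10.9). For the labelled groups, limma 3.58.1 (R 4.3.3) was fitted as 1 model of the 4 groups with a mean trend, two-sided, with 6 residual degrees of freedom. Lung tumors and metastases of 4 mice share a mouse tag, which pairs them by design. After removal of group means, the 4 pairs correlated at -0.02, -0.01, 0.04 and 0.05, and mouse as a replicate block was an alternative. Both procedures were tested on simulated data.

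The 40 lists hold 22 tumor programs, 16 cell types and 2 of RNA quality or sex chromosomes, with 867 symbols, of which 2 were not matched. Named genes are Calca and its family, the 15 highest and 15 lowest counted genes with at least 5 TPM in the higher set, up to 5 counted members of each program list (3 of the most abundant where none was counted), the targeted genes and main regulators, genes within 500 kb of Calca, and the 8 most correlated with it. For the highest and lowest genes, predicted genes, antigen receptor segments and members of the cell type and quality lists were passed over. Other list members are named as examples and were chosen with their values seen. Some genes that the rule takes are left out. The sets, lists and rules were chosen with earlier results of these data known. Positions come from GENCODE, in which 35028 of 35288 identifiers were found.

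Alternatives were pseudocounts of 0.1 and 5 TPM, a filter of 5 TPM or none, median centring, quantile normalization, rescaling without Calca or without the cell type and mitochondrially encoded genes, a minimum difference of 1, each tissue alone, and leaving out each sample in turn.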

Additional observations from a re-analysis of the deposited data

Results flagged for a closer look

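Ret differed in its tissue change between genotypes. The interaction of tissue and genotype, a test added with the data known, was 5.60 on the log2 scale with an adjusted p of 0.000666 (limma, Benjamini-Hochberg). The RPR2 metastases had 3.09 and 1.96 TPM and the RPR2 lung tumors 93.0 to 128 TPM. The Nfib-floxed metastases had 109 TPM (Calca-low) and 81.3 TPM (Calca-high), and the Nfib-floxed lung tumors 54.7 to 68.5 TPM. The interaction of Calca itself was 3.02 with an adjusted p of 0.644. Of 15503 genes, 90 passed the same limma test at an adjusted p under 0.05, 76 with a positive value and 14 with a negative one. Ret was flagged because it is among the genes named by the rule.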

How the results depend on the processing

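The 39 named genes that were counted had the same sign of difference under all 15 alternatives that gave them a value. They were counted because the sets did not overlap. Leaving out samples, each tissue alone, other pseudocounts and other filters therefore could not change the sign. Only the other scalings could, and differences of at least 2 log2 units left little room for that. The 165 higher and 33 lower genes became 478 and 71 with a pseudocount of 0.1 TPM, 29 and 14 with one of 5 TPM, 64 and 70 with quantile normalization, and 56 and 85 with median centring. They became 1747 and 250 with a minimum difference of 1 log2 unit, 691 and 294 in lung tumors alone, and 649 and 150 in metastases alone. Leaving out 1 sample at a time gave 205 to 685 higher and 37 to 356 lower genes. Values of fewer samples overlap less often, but the means shift as well, and the cause of the changed counts was not tested.

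In the tissue comparison 19 genes passed, 40 with a pseudocount of 0.1 TPM, 1 with one of 5 TPM and 2 with no filter. Leaving out 1 sample gave 0 to 35: 0 without the lung tumor of JHK1398, 3 without JHK997, 5 without the metastasis of JHK1399, 9 without that of JHK1398 or either RPR2 metastasis, and 35 without RPR2 JHK1548. The tissue change of Calca, -0.81, was 0.89 without the metastasis of JHK1398 and -2.50 without that of JHK1399, and none passed the threshold. In the genotype comparison 99 passed, and 26 to 186 with 1 sample left out: 26 and 45 without the RPR2 metastases of JHK1373 and JHK1394, 50 and 65 without their lung tumors, 33 without JHK1548, 45 without JHK997, 186 without the lung tumor of JHK1398 and 161 without the metastasis of JHK1399. With mouse as a replicate block, 23 genes passed for tissue and 91 for genotype, and the pairing changed no call on Calca. The cause of these shifts was not tested. With no depth in TPM, the noise of low genes is unknown, and 1 mouse in the low set limits every difference.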

Other observations

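The metastasis of JHK1398 had a set of neighboring genes on chromosome 4 far above the other Nfib-floxed tumors, a pattern noticed with the data seen. In it, 43 of 15243 tested genes (0.282%) were at least 4 times as high as in each of the other 4 tumors, and 16 of the 43 (37.2%) lay on chromosome 4, which holds 6.24% of the tested genes. In the other 4 tumors the same rule took 114 to 214 genes, 0 to 10 of them on chromosome 4. The highest ratios to the largest level in the other 4 tumors, 30.3 to 36.1, fell in 2 blocks (GRCm38). These also held Mycl and Ppt1, with ratios of 20.1 and 14.9. The first runs from Slc2a1, the glucose transporter GLUT1 (119108711), through Zfp691 to the end of Svbp (119201298). Slc2a1 had 2622 TPM there and 58.1 to 80.5 TPM in the others. The second runs from Ppt1, a lysosomal thioesterase (122836242), through Cap1 and Mycl to Trit1, a tRNA-modifying enzyme (ending at 123054949). Cap1, an actin regulator, had 5752 TPM against 104 to 173 TPM, Mycl 981 TPM against 12.2 to 48.8 TPM, Trit1 1074 TPM against 16.6 to 35.4 TPM and Ppt1 879 TPM against 25.1 to 59.0 TPM. In the RPR2 tumors Mycl had 106 to 482 TPM. Of the 28 tested genes between the 2 blocks, 0 met the rule. Outside the blocks, Frmd3 on chromosome 4 had a ratio of 22.7, Mylk4 on chromosome 13 one of 22.4 and Neurog3 on chromosome 10 one of 17.1. Further along chromosome 4, Srm, Tardbp, Dffa and Cenps met the rule too, with ratios of 4.06 to 10.6. DNA copy number was not measured in the files used here.

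Among the other genes that met the rule there, 3 enzymes of amino acid synthesis are named, picked with their values seen and from no list. Phgdh, the first enzyme of serine synthesis, had 76.2 TPM against at most 15.01 TPM in the other 4 tumors, Psat1, the second enzyme, 144 TPM against at most 21.8 TPM, and Pycr1, of proline synthesis, 54.3 TPM against at most 7.55 TPM. In the lung tumor of the same mouse these 3 genes had 12.2, 21.8 and 5.43 TPM.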
